A study of Arabidopsis thaliana with 8 samples.

Results

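Transcripts of 40 Arabidopsis thaliana genes for proteins of the cytosolic ribosome were followed in seeds imbibed for 24 h, with and without salt, in a serk1-1 line and in the wild type. The 40 genes were taken by a list of locus identifiers, and all 40 were found among the 33279 genes of the expression table. They encode 25 proteins of the large subunit (RPL genes) and 15 of the small subunit (RPS genes), in 25 families, of which 13 have 2 or 3 of their paralogues here (28 genes) and 12 a single gene. The RefSeq product names bore out the label, except that RPL10C is named there as a senescence-associated gene and AT5G03850 (RPS28) as an OB-fold protein. Where a paralogue has no name of its own in that annotation, it is called by its locus identifier.

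The 4 groups were serk1-1 seeds in medium with 200 mM NaCl, serk1-1 seeds without NaCl, Col-0 wild-type seeds with 200 mM NaCl, and Col-0 seeds without NaCl, with 2 biological replicates in each group. The seeds without NaCl are called control. All were of the Col-0 ecotype, were imbibed in Murashige & Skoog liquid medium, and were collected at 24 h. SERK1 encodes a receptor-like kinase of the plasma membrane; the labels do not say what kind of lesion serk1-1 is. SERK1 itself was low in every library, at 1.12 and 1.05 FPKM in serk1-1 with NaCl, 1.53 and 1.40 in serk1-1 control, 2.40 and 1.06 in Col-0 with NaCl, and 2.70 and 1.59 in Col-0 control, and these values overlapped between genotypes, so they do not check the genotype labels.

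Cytosolic ribosomes of plants are built in the nucleolus from ribosomal RNA and many ribosomal proteins, and most of these proteins are encoded by small families of very similar genes. Dry seeds keep a store of mRNA and ribosomes, and translation starts soon after water uptake, before new transcripts take over. Ribosomal protein genes are transcribed strongly in growing tissue, and their promoters are known for telo boxes and for site II elements, which TCP transcription factors bind.

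The transcripts were abundant. Values are FPKM, fragments counted per length of transcript and per number of mapped fragments, a measure per length that allows levels of different genes to be compared. Of the 40 genes, 37 had a mean of at least 100 FPKM over the 8 libraries, 6 had at least 1000 FPKM, and 33 were among the 500 genes with the highest mean. The median of the 40 means was 619 FPKM. EMB2386, which encodes RPL19, a large-subunit protein that reaches a bridge to the small subunit, had the highest mean. It stood at 1641 and 1584 FPKM in serk1-1 with NaCl, 2176 and 2026 in serk1-1 control, 1532 and 1187 in Col-0 with NaCl, and 1847 and 1645 in Col-0 control. All 4 of its NaCl libraries lay below all 4 control libraries. Next to it by mean were RPL10A (1488 FPKM), RPL10C (1381), the RPL8 gene EMB2296 (1331), RPS15 (1224) and RPL3A (1003), whose ranges over libraries overlapped. RPL10 joins the large subunit late in its assembly, RPL8 and RPL3 lie near the peptidyl transferase centre, and RPS15 lies near the decoding site. RPL16A (an RPL11 gene, 62.6 FPKM), RPL10B (31.6) and RPL3B (9.56) were the 3 genes with means under 100.

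**Figure D1:**
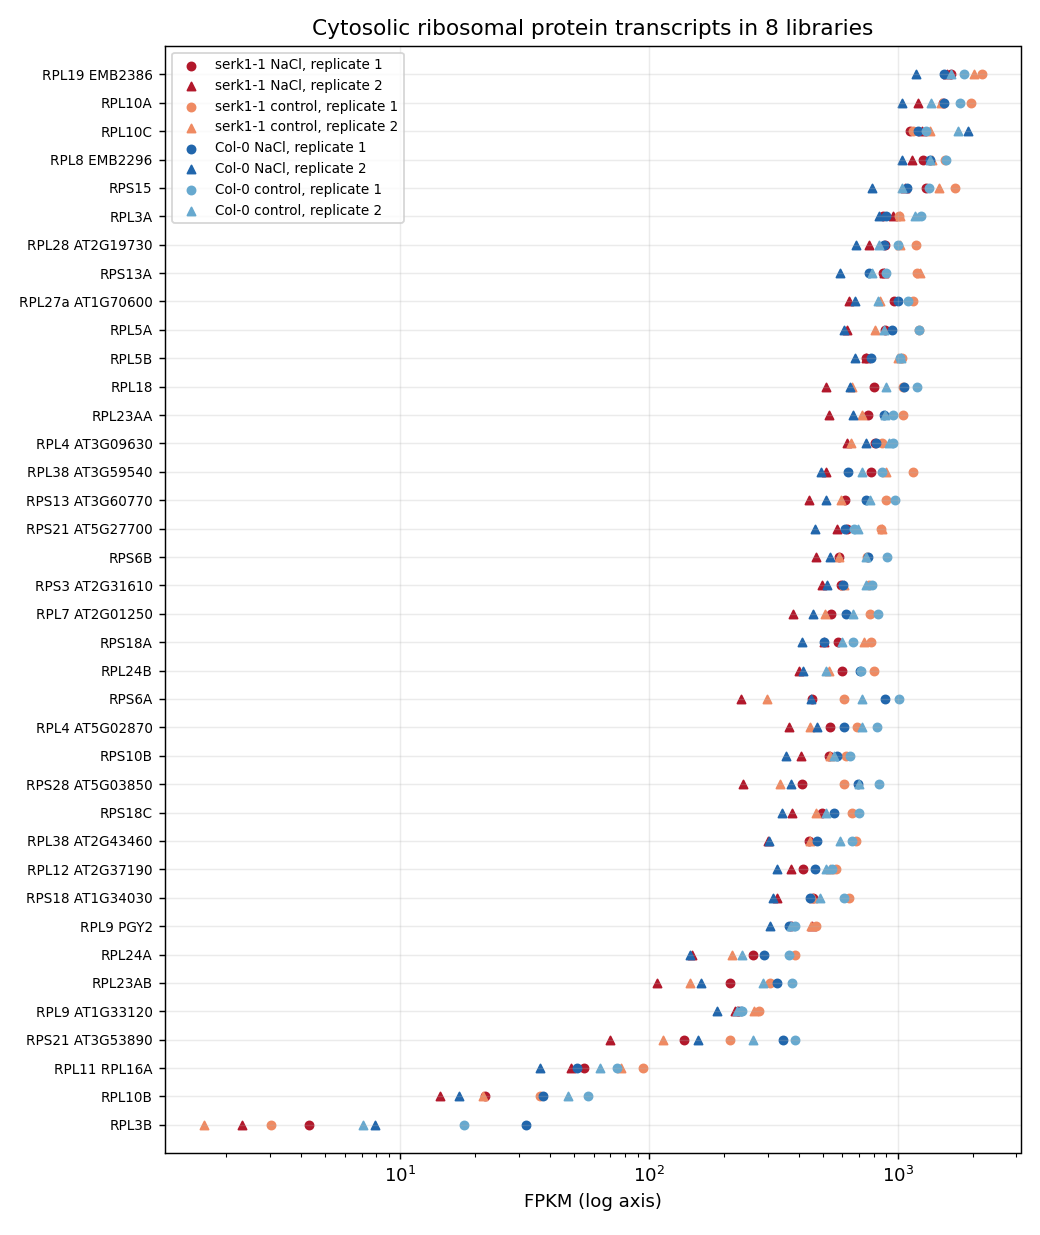
FPKM (log axis) in each of the 8 libraries for 38 of the 40 genes, genes ordered by their mean over libraries; circles are replicates 1 and triangles replicates 2. EMB2386 (RPL19) is at the top with a mean of 1705 FPKM and RPL3B at the bottom with 9.56 FPKM.

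Values are given as ranges over the 8 libraries for the remaining large-subunit genes that are single in their family here. AT2G19730, the RPL28 gene, ran between 683 and 1180 FPKM, AT1G70600 (RPL27a) between 635 and 1147, RPL18 between 515 and 1196, AT2G01250 (RPL7) between 379 and 836, and AT2G37190 (RPL12, of the stalk base) between 327 and 568. Among single small-subunit genes, AT2G31610 (RPS3, at the mRNA entry) ran between 497 and 790 FPKM, RPS10B between 356 and 641, and AT5G03850 (RPS28) between 239 and 840.

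Together the 40 genes took a smaller part of all FPKM with NaCl than in control in both genotypes. Their share of the summed FPKM was 2.88% and 2.37% in serk1-1 with NaCl (mean 2.62 ± 0.36, SD, n = 2), 3.77% and 3.01% in serk1-1 control (3.39 ± 0.54), 3.39% and 2.54% in Col-0 with NaCl (2.97 ± 0.60), and 4.28% and 3.59% in Col-0 control (3.94 ± 0.49). In serk1-1 both NaCl values lay below both control values, and in Col-0 the same held, while serk1-1 and Col-0 overlapped in each medium. With 2 libraries against 2 an exact permutation test cannot give a p below 0.333. All 232 cytosolic ribosomal protein genes listed, the 40 included, held 12.5% and 10.02% in serk1-1 with NaCl, 16.6% and 13.3% in serk1-1 control, 14.5% and 10.4% in Col-0 with NaCl, and 18.2% and 15.2% in Col-0 control. In bulk RNA, fewer cells of a type and less RNA per cell cannot be told apart.

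Replicates differed in a common direction. In the libraries numbered 2, 36 of the 40 genes were lower than in those numbered 1 in serk1-1 with NaCl (median ratio 0.763), 36 in serk1-1 control (0.756), 39 in Col-0 with NaCl (0.704) and 37 in Col-0 control (0.832). The depth is unknown, since the table holds no counts, and total FPKM ran between 777936 and 901215 per library. Other abundant classes moved with the groups and the replicates. The 11 seed storage and late embryogenesis genes listed held 4.56% and 7.05% of all FPKM in serk1-1 with NaCl, 3.47% and 5.51% in serk1-1 control, 1.12% and 2.21% in Col-0 with NaCl, and 0.746% and 1.31% in Col-0 control. The 5 ribosomal DNA loci held 0.612% and 0.286% in serk1-1 with NaCl, 1.28% and 1.82% in serk1-1 control, 2.44% and 5.85% in Col-0 with NaCl, and 2.55% and 4.02% in Col-0 control. Of the 3 endosperm markers, EPR1 was between 1355 and 1989 FPKM in serk1-1 and between 177 and 250 in Col-0, CP1 between 0.64 and 4.32 in serk1-1 and between 29.1 and 87.3 in Col-0, and MAN7 overlapped between genotypes (11.2 to 39.7 over all libraries). The 6 seed and embryo markers were present in every library (79.4 FPKM or more), while the root hair markers COBL9 and EXPA7 were listed at 0 in all 8 and RHD6 was at most 1.35. The part of these differences in the values of the ribosomal protein genes was not tested.

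**Figure D2:**
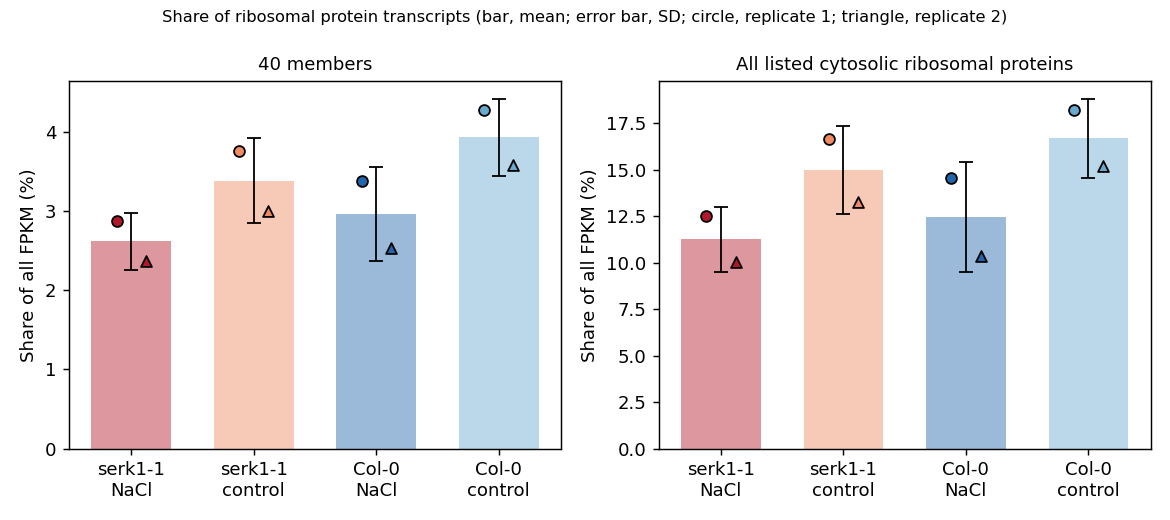
Share of the summed FPKM of a library (%) held by the 40 genes and by all 232 listed cytosolic ribosomal protein genes; bars are group means, error bars SD (n = 2), circles replicates 1 and triangles replicates 2. In each genotype both NaCl libraries lie below both control libraries, and replicates 2 lie below replicates 1.

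The salt comparison asked how seeds in 200 mM NaCl differed from seeds without it. Nearly the whole set had lower values with NaCl, and in both genotypes, but no single gene passed the test. Expressed as the ratio of group mean FPKM, NaCl over control, the median gene stood at 0.750 in serk1-1 (39 of 40 genes below 1, lowest 0.600) and at 0.773 in Col-0 (38 of 40, lowest 0.525), and 38 genes were below 1 in both. On the log2(FPKM + 1) scale, which understates changes of low genes, the median difference was −0.41 in serk1-1 and −0.44 in Col-0, against −0.06 and 0.05 over all 15336 genes tested. In serk1-1 it was −0.19 without control replicate 1 and −0.20 without NaCl replicate 2, and in Col-0 −0.24 without control replicate 1 and −0.13 without NaCl replicate 2. A negative difference was found for 97.5% of the 40 in serk1-1 and for 95.0% in Col-0, against 58.4% and 44.97% of all genes tested. These percentages describe genes of the same libraries, which are not independent of each other.

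No ribosomal protein gene was called by limma (threshold 0.05 for the p-value after Benjamini-Hochberg adjustment across the genes tested). This held in serk1-1 (0 of 40, with 0% of all genes called), in Col-0 (0 of 40, with 0.0456%) and averaged over the genotypes (0 of 40, with 0.274%). At an unadjusted p under 0.05, 1 of the 40 was lower in serk1-1, against 413 lower and 248 higher of the 15336 genes tested. In Col-0 2 of the 40 were lower at that limit, against 576 lower and 1164 higher. Averaged over genotypes 9 of the 40 were lower, against 1078 lower and 1217 higher. All 40 had passed the filter of at least 1 FPKM in at least 2 libraries. RPL16A, an RPL11 gene whose protein binds 5S ribosomal RNA together with RPL5, came nearest. It had 54.6 and 48.4 FPKM in serk1-1 with NaCl, against 94.5 and 77.3 in serk1-1 control, and 51.3 and 36.4 in Col-0 with NaCl, against 74.7 and 63.3 in Col-0 control. Every NaCl library lay below every control library. The difference averaged over genotypes was −0.69 ± 0.16 (SE, limma adjusted p = 0.111), with −0.72 ± 0.22 in serk1-1 and −0.66 ± 0.22 in Col-0.

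RPL5B and RPS18A, with the next smallest p, showed the same separation. RPL5B had 744 and 744 FPKM in serk1-1 with NaCl, against 1038 and 1007 in serk1-1 control, and 780 and 672 in Col-0 with NaCl, against 1020 and 1036 in Col-0 control. RPS18A, a small-subunit gene known in Arabidopsis for the pointed first leaf phenotype, had 575 and 504 FPKM in serk1-1 with NaCl, against 780 and 736 in serk1-1 control, and 507 and 412 in Col-0 with NaCl, against 663 and 595 in Col-0 control. In both genes the 4 NaCl libraries lay below the 4 control libraries. Averaged over genotypes, limma gave −0.48 ± 0.16 for each (SE, adjusted p = 0.230). In all, 10 of the 40 genes had 4 NaCl libraries below all 4 control libraries, a separation found in that direction for 3.23% of all genes tested, and none of the 40 had the opposite one, found for 2.54%. Besides RPL16A, RPL5B and RPS18A these were RPL3A, EMB2296 (RPL8), AT2G37190 (RPL12), EMB2386 (RPL19), AT1G34030 (RPS18), AT2G31610 (RPS3) and AT5G27700 (RPS21). Both subunits were represented, and their medians averaged over genotypes were −0.37 for the 25 large-subunit and −0.41 for the 15 small-subunit genes.

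RPL10C and RPL3B stood outside the common direction. RPL10C had 1126 and 1253 FPKM in serk1-1 with NaCl, against 1152 and 1355 in serk1-1 control, and 1205 and 1913 in Col-0 with NaCl, against 1297 and 1744 in Col-0 control, so its media overlapped in both genotypes. RPL3B had 4.31 and 2.31 FPKM in serk1-1 with NaCl, against 3.01 and 1.63 in serk1-1 control, and 32.1 and 7.95 in Col-0 with NaCl, against 18.1 and 7.07 in Col-0 control. Its media also overlapped in both genotypes. Each NaCl library was above the control library of the same genotype and number, but the labels do not pair libraries by number. Its log2 differences were 0.37 ± 0.66 in serk1-1 and 0.47 ± 0.66 in Col-0 (SE, limma adjusted p over 0.05 in both).

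**Figure D3:**
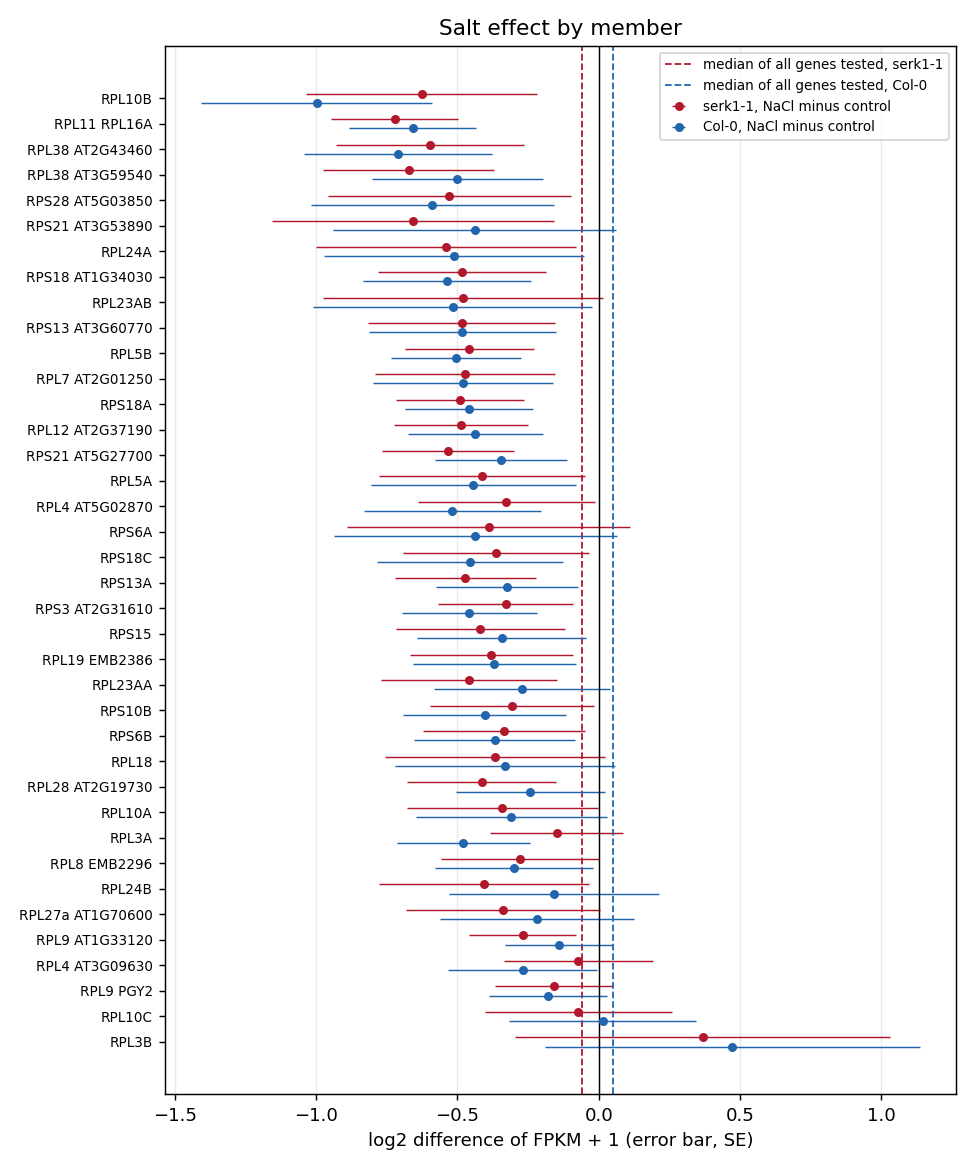
Log2 difference of FPKM + 1, NaCl minus control, in serk1-1 and in Col-0 for 38 of the 40 genes (points, limma estimates; error bars, SE), with the median of all genes tested as dashed lines. The points lie left of 0 except for RPL3B in both genotypes and RPL10C in Col-0.

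Paralogues of a family had similar salt differences, as most genes of the set did. No range was computed for genes of different families. Standard errors of single genes averaged over genotypes ran between 0.13 and 0.47. Averaged over genotypes, the range within a family was between 0.04 (RPL9) and 0.25 (RPL4) on the log2 scale in 11 of the 13 families. The other 2 families were RPL3, with 0.42 for RPL3B and −0.31 for RPL3A, and RPL10, with −0.81 for RPL10B, −0.33 for RPL10A and −0.03 for RPL10C. RPL10B had 21.9 and 14.4 FPKM in serk1-1 with NaCl, against 36.4 and 21.5 in serk1-1 control, and 37.6 and 17.2 in Col-0 with NaCl, against 57.0 and 47.1 in Col-0 control. Its NaCl values lay below both control values in Col-0 and overlapped with them in serk1-1. The salt effect did not differ detectably between genotypes for any gene of the set. For the salt effect of serk1-1 less that of Col-0, limma called 0 of 40 (0% of all genes). At an unadjusted p under 0.05 it had 0 of 40, against 14 higher and 151 lower of the 15336 genes tested. The median of the 40 was −0.01, with 19 positive and 21 negative. The smallest p was that of RPL3A (0.33 ± 0.33, SE, adjusted p = 1.00), so the standard errors leave room for differences of this size.

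The genotype comparison asked how serk1-1 seeds differed from Col-0 seeds. The set had no common direction, and 2 genes fell in serk1-1: RPL3B and the RPS21 gene AT3G53890. Averaged over media, limma called 2 of 40 as lower and 0 of 40 as higher, against 18.9% lower and 11.9% higher among all genes tested (30.8% in either direction), so the set held a smaller share of called genes than the background. Without NaCl it called 0 of 40 (11.1% of all genes), and with NaCl 0 of 40 (6.27% of all genes). At an unadjusted p under 0.05 without NaCl, 1 of the 40 was lower, against 2576 lower and 2101 higher of the 15336 genes tested. With NaCl 2 of the 40 were lower at that limit, against 2938 lower and 1371 higher. Averaged over media 5 of the 40 were lower and 1 higher, against 4285 lower and 2514 higher. The lower ones were RPL3B, AT3G53890, RPS6A, AT5G03850 (−0.73 ± 0.30, SE, limma adjusted p = 0.106) and RPL10B (−0.68 ± 0.29, adjusted p = 0.110). RPS13A was the higher one. The median of the 40 averaged over media was −0.05 on the log2 scale, with 24 negative, against −0.19 over all genes tested. That median changed sign with the scaling, at 0.17 when libraries were scaled by the median of ratios and −0.29 when they were quantile normalized, which moved the median of all genes to 0.00 and −0.02, so no direction is given for the set. With the first of these scalings 6 of the 40 were called higher and 2 lower, and over all genes tested 2563 were called higher and 2273 lower, against 1825 higher and 2897 lower without it. RPL3B was the only gene of the 40 whose 4 serk1-1 libraries all lay below the 4 Col-0 libraries (1 of 40, against 20.4% of all genes tested), and none lay above (0 of 40, against 12.3%).

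By value, paralogues of several families differed between genotypes in opposite directions or by unlike amounts. In 17 pairs of paralogues, the same gene was the higher in 8 of 8 libraries in 12 pairs, and the ratio of the pair separated the 4 serk1-1 from the 4 Col-0 libraries in 5 pairs and the media in 0. These pairs were found by comparing all 17, no matching share was computed for other gene pairs, and the separations are descriptions without a test. They were RPL3, RPS21, RPS6, RPS13 and RPL38.

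The promoters of RPL3, RPS21, RPS6 and RPL38 are shown because the ratios of these pairs separated the genotypes, so that the upstream sequences of the paralogues can be compared. RPS13 is not shown. The 250 bases before the gene start of RPS13A overlap a neighbouring gene, as do those of RPL3B, AT3G53890, AT3G59540 and AT2G43460. The stretches shown overlap no other annotated gene. Shown are the 120 bases before the annotated gene start, from the RefSeq genome TAIR10.1, 5′ to 3′ on the strand of the gene: chr1:16266433-16266552 (+) for RPL3A, chr1:22723153-22723272 (−) for RPL3B, chr5:9808514-9808633 (−) for AT5G27700, chr3:19956450-19956569 (−) for AT3G53890, chr5:3260255-3260374 (−) for RPS6B, chr4:15347805-15347924 (−) for RPS6A, chr3:21996841-21996960 (−) for AT3G59540 and chr2:18047402-18047521 (−) for AT2G43460. Capitals mark matches on either strand to the site II letters TGGGCC or TGGGCT and to the telo box AAACCCTA, and matches may overlap, as they do in the first capitals of RPS6B.
RPL3A: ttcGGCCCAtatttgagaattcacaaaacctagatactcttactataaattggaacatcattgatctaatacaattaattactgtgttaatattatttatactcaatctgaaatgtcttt
RPL3B: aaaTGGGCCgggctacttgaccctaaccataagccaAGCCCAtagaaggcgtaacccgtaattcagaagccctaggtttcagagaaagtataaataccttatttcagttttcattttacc
AT5G27700: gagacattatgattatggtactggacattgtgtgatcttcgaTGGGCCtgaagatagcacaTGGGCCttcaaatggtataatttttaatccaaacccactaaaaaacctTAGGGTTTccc
AT3G53890: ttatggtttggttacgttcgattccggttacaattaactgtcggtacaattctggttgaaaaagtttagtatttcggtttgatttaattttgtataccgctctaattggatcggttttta
RPS6B: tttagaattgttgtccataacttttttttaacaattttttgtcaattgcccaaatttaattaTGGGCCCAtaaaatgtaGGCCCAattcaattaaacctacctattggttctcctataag
RPS6A: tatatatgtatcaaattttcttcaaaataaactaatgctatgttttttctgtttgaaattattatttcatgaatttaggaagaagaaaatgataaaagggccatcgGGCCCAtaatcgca
AT3G59540: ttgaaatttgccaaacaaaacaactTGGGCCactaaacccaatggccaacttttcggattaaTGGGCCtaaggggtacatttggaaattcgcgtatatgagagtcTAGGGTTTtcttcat
AT2G43460: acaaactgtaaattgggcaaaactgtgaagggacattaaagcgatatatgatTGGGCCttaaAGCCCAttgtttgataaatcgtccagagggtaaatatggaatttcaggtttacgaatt
RPL3B has 2 site II matches in this stretch and RPL3A has 1, while over the 250 bases before the gene start RPL3B has 2 and RPL3A has 3. AT5G27700 has 2 site II matches and a telo box, and its paralogue AT3G53890, the gene that was lower in serk1-1, has no match to either. RPS6B has 3 matches and RPS6A has 1. AT3G59540 has 2 site II matches and a telo box, and AT2G43460 has 2 site II matches. In the RPS13 pair, over the 250 bases, AT3G60770 has 2 site II matches and RPS13A has no match to either motif. A match describes letters only.

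RPL3 is a core protein of the large subunit near the peptidyl transferase centre. Set against the RPL3B values given with the salt comparison, all between 1.63 and 4.31 FPKM in serk1-1 and between 7.07 and 32.1 in Col-0, its paralogue RPL3A had 874 and 961 FPKM in serk1-1 with NaCl, 1011 and 1023 in serk1-1 control, 895 and 839 in Col-0 with NaCl, and 1242 and 1175 in Col-0 control. RPL3B was therefore a small fraction of RPL3 transcripts in every library. The genotypes did not overlap for RPL3B and did for RPL3A. The difference averaged over media was −1.99 ± 0.47 for RPL3B (SE, limma adjusted p = 0.0187) and −0.08 ± 0.17 for RPL3A (adjusted p = 0.721), the second turning to 0.14 with median-of-ratios scaling. In the single media RPL3B gave −2.04 ± 0.66 with NaCl (adjusted p = 0.1002) and −1.93 ± 0.66 without (adjusted p = 0.0983). RPL3B was called in each single medium without Col-0 NaCl replicate 2 (adjusted p = 0.0449 with NaCl and 0.0456 without). The call averaged over media was lost without serk1-1 NaCl replicate 2 (adjusted p = 0.0665), serk1-1 control replicate 2 (0.0696) or Col-0 control replicate 1 (0.0599), with differences between −1.68 and −1.83.

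RPS21 is a protein of the small subunit, which takes part in its maturation in yeast. AT3G53890 had 138 and 69.9 FPKM in serk1-1 with NaCl, 213 and 114 in serk1-1 control, 347 and 158 in Col-0 with NaCl, and 386 and 261 in Col-0 control. Its paralogue AT5G27700 had 624 and 571 FPKM in serk1-1 with NaCl, 859 and 868 in serk1-1 control, 611 and 467 in Col-0 with NaCl, and 665 and 693 in Col-0 control. AT3G53890 was lower in serk1-1 within each medium, with both serk1-1 libraries under both Col-0 libraries, while AT5G27700 was higher in serk1-1 without overlap in control and overlapped with NaCl. The differences averaged over media were −1.13 ± 0.35 for AT3G53890 (SE, limma adjusted p = 0.0463) and 0.25 ± 0.16 for AT5G27700 (adjusted p = 0.271). The call of AT3G53890 was lost without 1 of 5 libraries (adjusted p between 0.0637 and 0.151 without serk1-1 NaCl replicate 2, serk1-1 control replicate 2, Col-0 NaCl replicate 1, or either Col-0 control replicate), with no filter on low genes (0.0916) and with no mean-variance trend (0.0551). The ratio of AT5G27700 to AT3G53890 was 4.51 and 8.17 in serk1-1 with NaCl, 4.04 and 7.61 in serk1-1 control, 1.76 and 2.96 in Col-0 with NaCl, and 1.72 and 2.65 in Col-0 control.

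RPS6 is the small-subunit protein that S6 kinases phosphorylate downstream of TOR. RPS6A had 452 and 234 FPKM in serk1-1 with NaCl, 609 and 298 in serk1-1 control, 891 and 447 in Col-0 with NaCl, and 1011 and 722 in Col-0 control. RPS6B had 583 and 470 FPKM in serk1-1 with NaCl, 753 and 579 in serk1-1 control, 763 and 533 in Col-0 with NaCl, and 909 and 747 in Col-0 control. RPS6B exceeded RPS6A in all 4 serk1-1 libraries and in 2 of the 4 Col-0 libraries, both of them replicates 2. Neither gene was called averaged over media: RPS6A differed by −0.98 ± 0.35 (SE, limma adjusted p = 0.0722) and RPS6B by −0.30 ± 0.20 (adjusted p = 0.285). RPS6A was called lower with quantile normalization (−1.14, adjusted p = 0.0332), with totals made equal without ribosomal DNA and storage genes (−1.11, adjusted p = 0.0391), without serk1-1 control replicate 1 (−1.24, adjusted p = 0.0480) and without Col-0 NaCl replicate 2 (−1.23, adjusted p = 0.0388).

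RPS13 lies in the small subunit at the interface with the large one. RPS13A had 874 and 878 FPKM in serk1-1 with NaCl, 1195 and 1235 in serk1-1 control, 766 and 585 in Col-0 with NaCl, and 896 and 785 in Col-0 control. AT3G60770 had 614 and 440 FPKM in serk1-1 with NaCl, 897 and 590 in serk1-1 control, 748 and 515 in Col-0 with NaCl, and 971 and 774 in Col-0 control. RPS13A was higher in serk1-1 than in Col-0 within each medium without overlap, and AT3G60770 overlapped. The differences averaged over media were 0.46 ± 0.18 for RPS13A (SE, limma adjusted p = 0.0844) and −0.25 ± 0.23 for AT3G60770 (adjusted p = 0.429), neither called. With median-of-ratios scaling RPS13A was called higher (0.68, adjusted p = 0.0184). The ratio of RPS13A to AT3G60770 was 1.42 and 1.99 in serk1-1 with NaCl, 1.33 and 2.09 in serk1-1 control, 1.02 and 1.14 in Col-0 with NaCl, and 0.922 and 1.01 in Col-0 control. The genes were thus within 1.14 times of each other in Col-0.

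RPL38 is a small protein of the large subunit. AT3G59540 had 784 and 517 FPKM in serk1-1 with NaCl, 1152 and 895 in serk1-1 control, 631 and 492 in Col-0 with NaCl, and 867 and 717 in Col-0 control. AT2G43460 had 440 and 300 FPKM in serk1-1 with NaCl, 679 and 445 in serk1-1 control, 472 and 304 in Col-0 with NaCl, and 654 and 589 in Col-0 control. Their ratio ran between 1.70 and 2.01 in serk1-1 and between 1.22 and 1.62 in Col-0. Neither gene was called averaged over media, with 0.28 ± 0.21 for AT3G59540 (SE, limma adjusted p = 0.347) and −0.12 ± 0.23 for AT2G43460 (adjusted p = 0.723). With median-of-ratios scaling AT3G59540 was called higher (0.50, adjusted p = 0.0491) and AT2G43460 turned to 0.11.

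**Figure D4:**
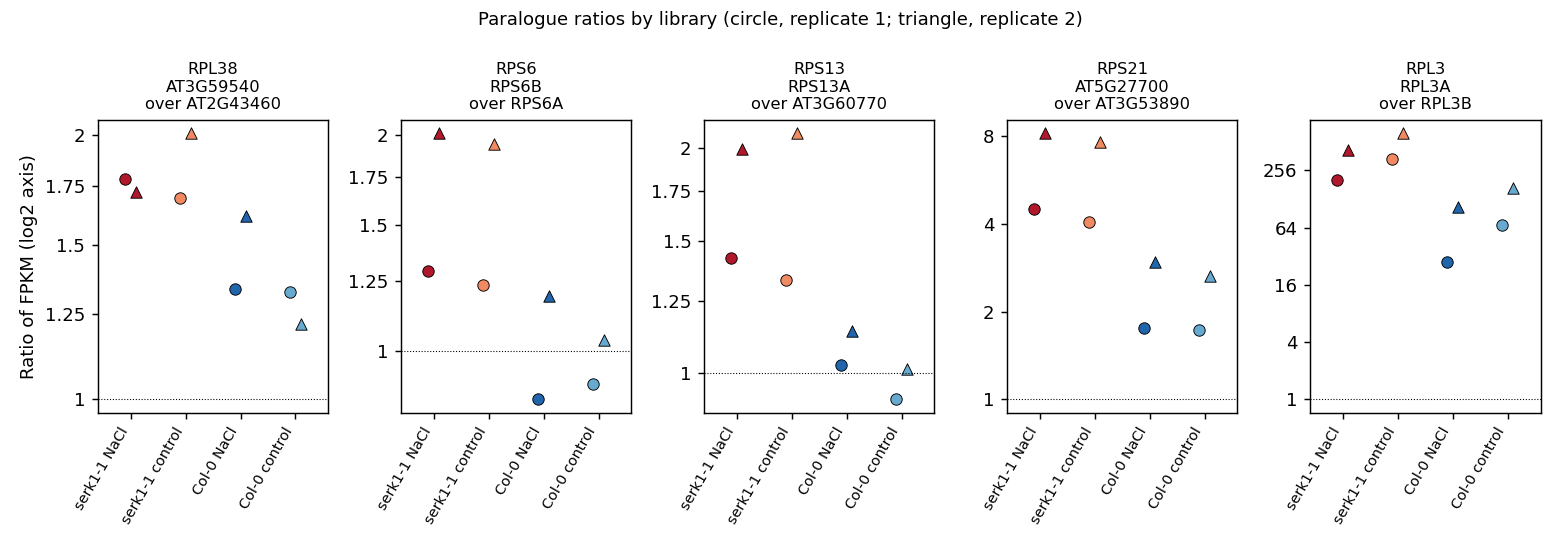
Ratio of the FPKM of paralogues in each library (log2 axis, a separate range for each panel) for the 5 pairs whose genotypes did not overlap; circles are replicates 1 and triangles replicates 2, and the dotted line marks a ratio of 1. All 4 serk1-1 libraries lie above all 4 Col-0 libraries in each panel, and replicate 2 lies above replicate 1 within a group except in RPL38.

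In the other families the ratios of the paralogues overlapped between genotypes. The range of the genotype differences within a family was 0.02 in RPL24, 0.06 in RPL5, 0.12 in RPL9 and 0.15 in RPL4. It was 0.32 in RPS18, 0.44 in RPL23a and 0.80 in RPL10. In the families whose ratios separated the genotypes it was 0.40 in RPL38, 0.68 in RPS6, 0.71 in RPS13, 1.39 in RPS21 and 1.90 in RPL3. RPL10 thus had a wider range than RPL38, RPS6 and RPS13, and RPL23a a wider one than RPL38. RPL23a sits at the exit of the nascent chain. Its gene RPL23AB had 211 and 108 FPKM in serk1-1 with NaCl, 306 and 146 in serk1-1 control, 326 and 161 in Col-0 with NaCl, and 376 and 288 in Col-0 control. The genotypes overlapped for it. RPL23AA exceeded RPL23AB in 8 of 8 libraries, by 2.55 to 4.95 times. RPL24, which in Arabidopsis is known for a part in translation re-initiation after upstream reading frames, had RPL24B above RPL24A in all 8 by 1.95 to 2.85 times. RPL5A exceeded RPL5B in the 4 replicates 1 (1.17 to 1.22 times) and was below it in the 4 replicates 2 (0.803 to 0.906), so their order followed the replicate number and not a group. RPL4, whose protein lines the exit tunnel, had AT3G09630 above AT5G02870 in all 8 by 1.16 to 1.71 times. In RPS18, RPS18A exceeded AT1G34030 in 8 of 8 libraries (1.09 to 1.60 times) and RPS18C in 6 (0.917 to 1.57 times over all libraries). RPS18C, between 344 and 696 FPKM, exceeded AT1G34030, between 317 and 636 FPKM, in 8 of 8 (1.02 to 1.24 times).

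**Figure D5:**
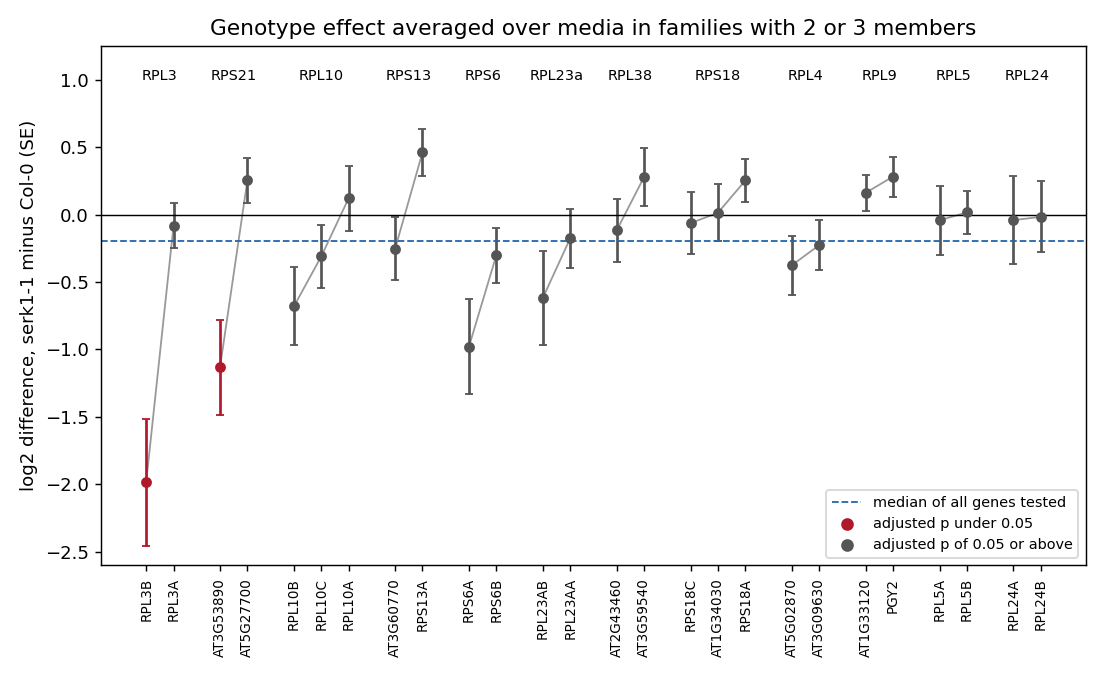
Log2 difference, serk1-1 minus Col-0, averaged over media (points, limma estimates; error bars, SE) for 26 genes in 12 families with 2 or 3 paralogues, families ordered by the range within them. RPL3B and AT3G53890, in red, are the genes with an adjusted p under 0.05, and the dashed line is the median of all genes tested, −0.19.

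The direction of the genotype difference in paralogue ratios was also that of the replicate difference. The ratio of the more abundant to the less abundant paralogue was larger in serk1-1 than in Col-0 in 14 of 17 pairs, larger in replicates 2 than in replicates 1 in 13 of 17, and larger with NaCl than in control in 14 of 17. Which paralogue was the more abundant was set by the mean over all 8 libraries, so it depended on the values counted. Pairs within RPL10 and within RPS18 share genes, and no matching share was computed for other gene pairs. These counts are therefore descriptions without a test. The replicate difference is no group difference, and its part in the other counts was not tested. Reads of near-identical genes can be assigned to either of them. Of all stretches of 100 bases, the length of a read, in the annotated mRNAs, 36 of the 40 genes shared none with another gene. RPL9 was the exception among the pairs: 50.8% of the stretches of AT1G33120 and 51.7% of those of PGY2 occur in other genes, and their coding sequences are 99.2% identical, so the split of RPL9 between PGY2 (308 to 469 FPKM) and AT1G33120 (188 to 277 FPKM) is uncertain. PGY2 is known in Arabidopsis from leaf patterning. RPL5B shared 0.81% and RPL16A 2.14% of their stretches.

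Over the 250 bases before the gene start, a site II match was present in 27 of the 40 promoters (67.5%), and a telo box in 6 (15.0%), while 12 had neither. Of the 27443 protein-coding promoters in the RefSeq annotation 19.2% hold a site II match and 4.49% a telo box. The 192 other listed cytosolic ribosomal protein genes had 68.2% and 24.0%, and the 33 plastid ribosomal protein genes 36.4% and 12.1%. Genes with and without a site II match had close median differences, at −0.38 (n = 27) and −0.42 (n = 13) for salt averaged over genotypes, and −0.04 and −0.06 for genotype averaged over media.

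The 192 other listed cytosolic ribosomal protein genes also had lower values with NaCl. Averaged over genotypes, 172 of the 175 tested had a negative difference, with a median of −0.42 and 0 called by limma. At an unadjusted p under 0.05, 47 were lower and 0 higher, against 1078 lower and 1217 higher of the 15336 genes tested. Averaged over media, 6 were called higher and 12 lower in serk1-1 (11.9% higher and 18.9% lower among all genes tested), with a median of −0.14. With median-of-ratios scaling 28 of 174 were called higher and 11 lower, and the median was 0.07. Over all genes tested that scaling called 2563 higher and 2273 lower. Named by the smallest p, RPSAb, which encodes small-subunit protein SA, had 20.9 and 10.3 FPKM in serk1-1 with NaCl, 26.1 and 9.26 in serk1-1 control, 65.2 and 51.6 in Col-0 with NaCl, and 80.2 and 61.9 in Col-0 control, a difference of −2.003 ± 0.34 (SE, limma adjusted p = 0.00656). AT1G74270, which encodes an L35Ae family protein of the large subunit, rose by 0.87 ± 0.16 (adjusted p = 0.00751), with 249 and 295 FPKM in serk1-1 with NaCl, 327 and 449 in serk1-1 control, 154 and 166 in Col-0 with NaCl, and 186 and 203 in Col-0 control. Neither gene overlapped between the genotypes.

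Genes that act on ribosomes and translation were also described from lists. Of 16 ribosome biogenesis genes, 6 were called lower and 0 higher in serk1-1 averaged over media (median −0.39), against 18.9% lower and 11.9% higher among all genes tested. With median-of-ratios scaling 5 were called lower and 1 higher (median −0.17), against 2273 lower and 2563 higher over all genes tested. NOP56, a core protein of the box C/D particles that methylate ribosomal RNA, had 160 and 103 FPKM in serk1-1 with NaCl, 208 and 115 in serk1-1 control, 370 and 259 in Col-0 with NaCl, and 391 and 380 in Col-0 control. Its serk1-1 libraries all lay below its Col-0 libraries (−1.29 ± 0.25, SE, limma adjusted p = 0.00923), as did those of PUM24 (25.9 to 46.3 FPKM in serk1-1 and 72.6 to 101 in Col-0, −1.28 ± 0.18, adjusted p = 0.00384). Of 12 translation factor genes, 7 were called lower and 0 higher (median −0.71), against the same 18.9% and 11.9%. With median-of-ratios scaling 4 were called lower and 0 higher (median −0.49), against the same 2273 and 2563 genes. Among them were the cap-binding EIF4E (31.3 to 47.7 FPKM in serk1-1 and 83.1 to 112 in Col-0, −1.23 ± 0.19, adjusted p = 0.00500) and the helicase EIF4A-2 (43.9 to 81.9 FPKM in serk1-1 and 136 to 174 in Col-0, −1.40 ± 0.22, adjusted p = 0.00509). Both genes had genotypes that did not overlap. Of 6 TOR and S6 kinase genes 5 were tested, and the S6 kinase genes moved apart: S6K2 rose (17.3 to 23.2 FPKM in serk1-1 and 9.83 to 17.1 in Col-0, 0.63 ± 0.15, adjusted p = 0.0198) and PK1, the S6K1 gene, fell (26.5 to 36.3 FPKM in serk1-1 and 37.9 to 50.6 in Col-0, −0.55 ± 0.16, adjusted p = 0.0409). The call of PK1 was lost with median-of-ratios scaling (−0.33, adjusted p = 0.0932) and with quantile normalization (−0.41, adjusted p = 0.0599). In none of these lists did limma call a gene for salt averaged over genotypes. At an unadjusted p under 0.05 it had 3 of 16 biogenesis, 1 of 12 translation factor and 0 of 5 kinase genes. Those it had were lower with NaCl, against 1078 lower and 1217 higher of the 15336 genes tested.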

How the data were processed

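Total RNA of whole imbibed seeds was sequenced as 8 paired-end libraries (2 reads of 100 bases, TruSeq kit, Illumina HiSeq), per the labels' protocols, which call the 2 libraries of a group biological replicates. The p-values thus rest on the spread between such libraries. The titles of the serk1-1 samples also hold the words wild type, and the genotype label was followed. The authors deposited FPKM per gene, made with TopHat2, Cufflinks 2.1.1 and FastQC 0.10.1 on TAIR10, per the submitters' processing notes. The strand setting and the treatment of reads with several matches are not stated in the sources used. As FPKM are scaled to the fragments mapped in each library, abundant transcripts lower the values of the others, and the depth is unknown. No column of the table was left out (0).

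Log2(FPKM + 1) was fitted, for the 15336 genes that reached 1 FPKM in 2 or more libraries, with limma 3.58.1 in R 4.3.3 (4 group means, mean-variance trend, 4 residual degrees of freedom), for 7 comparisons, with Benjamini-Hochberg adjustment over all genes tested and a threshold of 0.05. The fit was tested on simulated data. Same-numbered replicates share only a number in the labels, so no block was used. The tests, and the separations of libraries between genotypes or media, thus take the libraries as independent. Motifs and shared stretches were searched with Python 3.11.15 in RefSeq TAIR10.1 sequences, and figures were drawn with matplotlib 3.10.9.

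The 40 genes, the lists and the tests were chosen with earlier results of these data known. Genes named were all of the families with 2 or more members (1 family is counted but not reported by name here), those called (at most 8) or else the 3 smallest p in each comparison, the highest and the lowest gene, and 2 genes per other list. Values of the remaining members, and of the exceptions to the common salt direction, were added after they were seen. Alternatives were pseudocounts of 0.1 and 0.5, no filter or a mean of 5 FPKM, median-of-ratios scaling, quantile normalization, no trend, robust moderation, fits restricted to the compared groups, a replicate block and each library left out. Totals made equal without ribosomal DNA and storage genes, and median-of-ratios scaling with the block, were added after seeing the data.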

Additional observations from a re-analysis of the deposited data

How the results depend on the processing

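The negative median of the 40 genes for salt held under every setting tried, in each genotype and averaged, although in Col-0 it moved to −0.13 without Col-0 NaCl replicate 2. With each library left out in turn it ran between −0.62 and −0.13 in Col-0, −0.59 and −0.19 in serk1-1, and −0.53 and −0.27 averaged, with 0 genes called each time. The genotype median did not keep its sign. It was 0.24 with NaCl and 0.17 averaged over media with median-of-ratios scaling, with or without the replicate block, and −0.35 without NaCl and −0.29 averaged with quantile normalization. With each library left out it ran between −0.24 and 0.10 without NaCl, −0.32 and 0.22 with NaCl, and −0.19 and 0.09 averaged. Genes called by genotype averaged over media numbered 8 with median-of-ratios scaling (6 higher, 2 lower), against 4836 of all genes tested. They numbered 5 with quantile normalization, against 5441, 1 with no filter, against 4040, and 1 with no mean-variance trend, against 4505. The number also changed with single libraries left out, where a group keeps 1 library. A fit of only the groups compared called 1 without NaCl, against 1751 of all genes tested.

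With the replicate number as a block, 3 of the 40 genes were called for salt in Col-0, 0 in serk1-1 and 20 averaged (all lower), against 1101, 12 and 2168 of the 15336 genes tested. For genotype the block called 8 without NaCl (1 higher, 7 lower), 5 with NaCl (0 higher, 5 lower) and 12 averaged (3 higher, 9 lower), against 6153, 5869 and 8681 of all genes, and it called 0 for the difference of the salt effects. With median-of-ratios scaling and the replicate block the counts were 4, 0 and 19 for salt (all lower), against 1027, 11 and 2265 of all genes, and for genotype the balance turned to 14 (9 higher, 5 lower), 11 (8 higher, 3 lower) and 17 (11 higher, 6 lower), against 6043, 5323 and 8308 of all genes. No label says that a number marks a shared batch. Over all genes, deviations of same-numbered libraries correlated between media at 0.719 in serk1-1 and 0.720 in Col-0, and between genotypes at 0.397 to 0.451. Over the 40 genes they correlated between media at 0.941 in serk1-1 and 0.887 in Col-0, and between genotypes at 0.629 to 0.729. Each group has a single pair of deviations of opposite sign. The fit without the block took all libraries as independent. Its genotype p-values averaged over media do not allow for deviations shared between media.

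Single genes with a reversed sign were RPL3A for genotype averaged (0.14 with median-of-ratios scaling, with or without the replicate block), AT2G43460 likewise (0.11 in both, 0.02 without serk1-1 NaCl replicate 2, 0.03 without serk1-1 control replicate 2, 0.04 without Col-0 NaCl replicate 1), and, for the salt effect in serk1-1 less that in Col-0, RPL10B (−0.17 without Col-0 NaCl replicate 2) and AT5G27700 (0.0064 without Col-0 NaCl replicate 1). With each library left out, these ran between −0.28 and 0.0411 for AT2G43460, −0.17 and 0.91 for RPL10B, and −0.38 and 0.0064 for AT5G27700. The cause was not tested.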

Other observations

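Plastid ribosomal protein genes encode subunits of the separate ribosome of plastids. Averaged over media, 18 of 33 were called higher in serk1-1 and 0 lower, against 11.9% higher and 18.9% lower among all genes tested. The median log2 difference was 0.54, and 4 had a negative difference. With median-of-ratios scaling 20 were called higher and 0 lower, against 2563 higher and 2273 lower over all genes tested. With quantile normalization 20 were called higher and 0 lower, against 2749 and 2692. With totals made equal without ribosomal DNA and storage genes 15 were called higher and 1 lower, against 1437 and 4149. AT4G01310 had 62.2 and 77.9 FPKM in serk1-1 with NaCl, 86.9 and 101 in serk1-1 control, 18.8 and 22.8 in Col-0 with NaCl, and 26.6 and 27.1 in Col-0 control (1.73 ± 0.14, SE, limma adjusted p = 0.000861). AT5G47190 had 40.01 and 36.7 FPKM in serk1-1 with NaCl, 57.2 and 58.7 in serk1-1 control, 19.4 and 19.2 in Col-0 with NaCl, and 26.1 and 26.7 in Col-0 control (1.03 ± 0.11, adjusted p = 0.00193). The genotypes did not overlap for either gene. With NaCl the plastid set was also lower by value, with a median of −0.29 averaged over genotypes, 32 of 33 negative and 0 called. At an unadjusted p under 0.05, 12 were lower and 0 higher, against 1078 lower and 1217 higher of the 15336 genes tested. The share of all FPKM held by the 33 genes was 0.348 ± 0.002% in serk1-1 with NaCl, 0.444 ± 0.016% in serk1-1 control, 0.280 ± 0.010% in Col-0 with NaCl and 0.333 ± 0.036% in Col-0 control (SD, n = 2 each).

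Among the storage and late embryogenesis genes, 9 of 11 were called higher in serk1-1 and 0 lower (median 1.94), against 11.9% higher and 18.9% lower among all genes tested. EM1, a late embryogenesis abundant protein gene, had 1347 and 1577 FPKM in serk1-1 with NaCl, 812 and 1111 in serk1-1 control, 430 and 286 in Col-0 with NaCl, and 137 and 118 in Col-0 control. Its genotypes did not overlap (2.47 ± 0.20, SE, limma adjusted p = 0.000861). All 11 had higher values with NaCl, with 0 called. At an unadjusted p under 0.05, 6 were higher and 0 lower, against 1217 higher and 1078 lower of the 15336 genes tested.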
